A study of Homo sapiens with 8 samples.

Results

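Antigen presentation by MHC class I was followed in SK-N-MC, a cell line established from Ewing sarcoma, through 9 genes chosen by symbol: the heavy chains HLA-B, HLA-C, HLA-E and HLA-F, their shared light chain B2M, the peptide transporter subunits TAP1 and TAP2, the loading chaperone TAPBP and the transactivator NLRC5. They are 9 of the 60332 genes in the expression table. The rule uses symbols and no measured value, but the symbols were chosen with earlier results of these data known. RNA was sequenced in 8 libraries, 2 in each of 4 groups. Control cells carried an empty lentiviral dCas9-KRAB vector, a catalytically dead Cas9 joined to a repressor domain, and were grown in normoxia or in 1% oxygen for 16 h. In eKD1 and eKD2 cells, a guide directed dCas9-KRAB to the sequence beside the GGAA-repeat enhancer of LOXHD1, with a different guide in each line, and both lines were sampled in 1% oxygen for 16 h. All cells therefore carried dCas9-KRAB. The lines were puromycin-selected polyclonal pools, 1 pool per vector, and no eKD library from normoxia was analysed here.

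Expression is given in FPKM, the number of fragments divided by transcript length and by the mapped reads of the library. Division by length allows comparison between genes, while comparison between libraries also depends on how they were scaled. Column totals were 865107 to 1041457 FPKM, and 19310 to 20770 genes were above 0. The table holds no read counts, so absolute depth is unknown. The relative depth, read from the spacing of low values, was 55.7% to 100% of that in replicate 1 of control hypoxia. LOXHD1, the gene behind the targeted enhancer, averaged 162 FPKM in control normoxia and 92.1 FPKM in control hypoxia. It averaged 16.2 FPKM in eKD1 and 11.7 FPKM in eKD2, which is 17.6% and 12.7% of control hypoxia. Of the Ewing sarcoma markers, 10 of 10 passed the filter of 1 FPKM in at least 2 libraries, with CD99, a surface protein of these tumours, at a mean of 343 FPKM. Among 8 leukocyte markers, CD3E and NKG7 were at 0 in all 8 libraries, while PTPRC, which encodes CD45, averaged 13.01 FPKM. Of the class II genes, CD74 and HLA-DQA1 were at 0 in all 8 libraries. The filter was passed by 3 of 8, with HLA-DRB1 at a mean of 4.27 FPKM and HLA-DQB1 at 1.87 FPKM. Fibroblast and endothelial markers passed it in 3 of 5 genes, with DCN at a mean of 140.8 FPKM and COL3A1 at 74.0 FPKM. The only endothelial marker among the 5, CDH5, did not pass it, at a mean of 0.556 FPKM. The fibroblast marker PDGFRA did not pass either, at 0.335 FPKM. In bulk RNA, fewer cells expressing a gene and less RNA per cell cannot be told apart.

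MHC class I molecules show peptides from inside the cell to CD8+ T cells and natural killer cells. Proteasomes cut cytosolic proteins, the TAP1-TAP2 dimer pumps the peptides into the endoplasmic reticulum, and tapasin, the product of TAPBP, holds an empty heavy chain with its B2M partner at the transporter until a peptide binds. HLA-B and HLA-C are classical, highly polymorphic heavy chains, whereas HLA-E and HLA-F are conserved and are read mainly by natural killer cell receptors. NLRC5 acts with an RFX, CREB and NF-Y complex on the X and Y boxes of class I promoters, and interferon raises the same genes through STAT and IRF factors. Ewing sarcoma is known as a tumour with low class I display.

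HLA-B (ENSG00000234745.10_2) lies on chromosome 6 at 31321649 to 31334844 and HLA-C (ENSG00000204525.16_2) at 31236526 to 31239907, both on the minus strand of GRCh37. HLA-E (ENSG00000204592.8_2) lies at 30457286 to 30461971 and HLA-F (ENSG00000204642.13_3) at 29690552 to 29706305, both on the plus strand of the same chromosome. TAP1 (ENSG00000168394.10_2) at 32812986 to 32821593, TAP2 (ENSG00000204267.13_3) at 32789610 to 32806516 and TAPBP (ENSG00000231925.11_2) at 33267471 to 33282061 are on the minus strand of chromosome 6 too. B2M (ENSG00000166710.17_2) is on the plus strand of chromosome 15 at 45003556 to 45011049. NLRC5 (ENSG00000140853.15_3) is on the plus strand of chromosome 16 at 57023397 to 57117443. All 9 are annotated as protein coding. These positions are from GENCODE. The merged locus that holds HLA-B in the expression table ends at 31325414, before the HLA-B end given here.

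The promoters are shown because the heavy chains, B2M and the TAP genes answer to the same factors through short motifs near the start site. RefSeq promoter sequences matched 7 of the 9 genes, and the 250 bases upstream of the start site are given 5′ to 3′ on the gene's strand for 6 of them, in GRCh38.p14 coordinates. Capitals mark matches, on either strand, to the interferon-stimulated response element (GAAANNGAA), an NF-kB motif (GGGNNTTCC), the core of the X2 box (TGACGC) and the Y box (CCAAT). For TAP1, the first of 2 listed start sites is shown.
HLA-B promoter, chr6:31357180-31357429 (- strand): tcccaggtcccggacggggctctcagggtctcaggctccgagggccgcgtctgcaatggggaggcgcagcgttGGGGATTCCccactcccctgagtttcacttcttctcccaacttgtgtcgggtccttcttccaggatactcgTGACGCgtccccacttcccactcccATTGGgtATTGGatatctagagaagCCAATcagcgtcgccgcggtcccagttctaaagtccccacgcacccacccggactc
HLA-C promoter, chr6:31272093-31272342 (- strand): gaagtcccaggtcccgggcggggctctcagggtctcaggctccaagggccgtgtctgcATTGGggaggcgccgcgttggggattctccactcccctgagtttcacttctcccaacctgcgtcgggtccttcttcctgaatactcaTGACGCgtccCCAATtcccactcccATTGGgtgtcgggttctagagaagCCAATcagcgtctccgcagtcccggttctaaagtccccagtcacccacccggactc
HLA-F promoter, chr6:29723184-29723433 (+ strand): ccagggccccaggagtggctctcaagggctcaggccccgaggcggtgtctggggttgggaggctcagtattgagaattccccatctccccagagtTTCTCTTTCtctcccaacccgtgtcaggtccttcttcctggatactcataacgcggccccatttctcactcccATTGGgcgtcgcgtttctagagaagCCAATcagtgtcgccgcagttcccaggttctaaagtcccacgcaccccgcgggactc
B2M promoter, chr15:44711267-44711516 (+ strand): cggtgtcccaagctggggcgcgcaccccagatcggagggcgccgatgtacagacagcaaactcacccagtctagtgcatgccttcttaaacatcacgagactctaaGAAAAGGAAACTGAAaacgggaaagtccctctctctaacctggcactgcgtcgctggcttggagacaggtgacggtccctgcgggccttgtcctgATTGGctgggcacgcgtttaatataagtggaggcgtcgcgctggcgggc
TAP1 promoter, chr6:32853705-32853954 (- strand): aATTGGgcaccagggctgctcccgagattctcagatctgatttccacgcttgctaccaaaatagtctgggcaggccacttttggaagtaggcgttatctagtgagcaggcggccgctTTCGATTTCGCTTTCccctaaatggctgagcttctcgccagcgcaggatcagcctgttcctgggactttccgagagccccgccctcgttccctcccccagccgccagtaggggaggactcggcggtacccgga
TAP2 promoter, chr6:32838740-32838989 (- strand): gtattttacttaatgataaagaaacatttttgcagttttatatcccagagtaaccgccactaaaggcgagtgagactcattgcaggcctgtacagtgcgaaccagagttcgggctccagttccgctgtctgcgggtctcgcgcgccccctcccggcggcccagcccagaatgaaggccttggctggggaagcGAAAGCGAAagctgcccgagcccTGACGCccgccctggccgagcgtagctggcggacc

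The promoters of HLA-B and HLA-C were 89.0% identical over 254 aligned positions, and that of HLA-F was 80.4% identical to HLA-B and 78.6% to HLA-C. The remaining pairs of the 7 promoters were 46.6% to 51.7% identical. A Y box match was found in 5 of 7 genes (HLA-B, HLA-C, HLA-F, B2M and TAP1) and in 32.0% of all 35116 promoters of the same length. An X2 box core was found in HLA-B, HLA-C and TAP2, against 7.67% of all promoters. The interferon-stimulated response element matched in 5 of 7 genes (HLA-F, B2M, TAP1, TAP2 and TAPBP) and in 6.88% of all promoters, with a pair of overlapping matches in B2M, TAP1 and TAPBP. The NF-kB motif matched in HLA-B and TAPBP, against 5.78% of all promoters, and a gamma-activated site (TTCNNNGAA) only at the second start site of TAP1, against 6.57%. The core of the hypoxia response element (ACGTG, 18.5% of all promoters) and a tandem GGAA (GGAAGGAA, 3.06%) matched in 0 of 7 genes in this window. These are letter matches, not sites of binding. Variants of these letters were not sought, so a gene without a match may still hold the element.

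**Figure D1:**
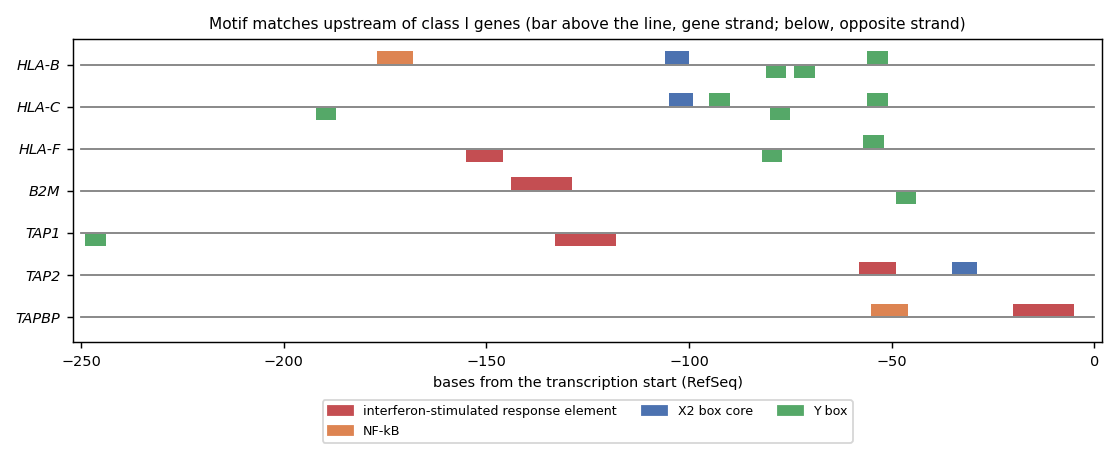
Positions of motif matches in the 250 bases upstream of the RefSeq start site of 7 class I genes, with bases from the start on the horizontal axis and a row for each gene. Bars above a line are on the gene's strand and bars below it on the opposite strand. HLA-B and HLA-C share an X2 box core near 105 bases upstream and a Y box at 56 bases upstream. Matches to GAAANNGAA, the pattern used for the interferon-stimulated response element (red), lie in HLA-F, B2M, TAP1, TAP2 and TAPBP.

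B2M was by far the most abundant of the 9 transcripts, with a mean of 1911 FPKM over the 8 libraries, a lowest value of 1658 FPKM and a highest of 2185 FPKM. HLA-B followed at a mean of 178.8 FPKM, HLA-C at 76.1 FPKM and HLA-E at 41.4 FPKM. TAP2 averaged 20.0 FPKM, TAPBP 15.6 FPKM, HLA-F 13.9 FPKM and TAP1 9.53 FPKM, in that order. The ranges of TAP2, TAPBP and HLA-F over the libraries overlapped, as did those of TAP1, HLA-F and TAP2, whereas TAPBP was above TAP1 in every library. HLA-B was above HLA-C in every library, at 1.84 to 3.93 times its level. NLRC5 averaged 0.225 FPKM, stayed below 1 FPKM in every library and was the only member that did not pass the filter, which left 8 of 9 genes tested.

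**Figure D2:**
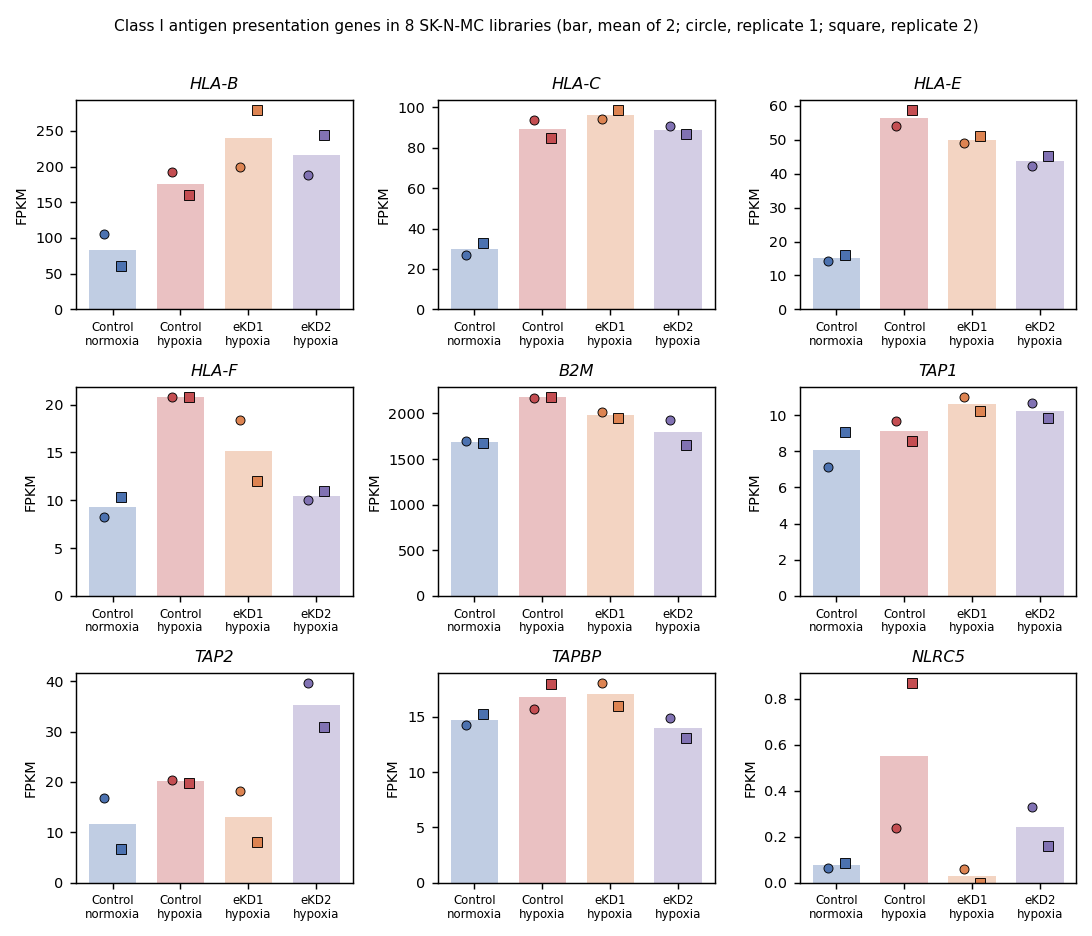
FPKM of the 9 class I genes in each library, with circles for replicate 1, squares for replicate 2 and bars for the mean of 2; each panel has its own axis starting at 0. HLA-C and HLA-E stand more than 2 times above normoxia in all 6 hypoxia libraries, HLA-F is near its normoxia level in eKD2, and TAP2 differs widely between the duplicates of control normoxia and of eKD1.

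Hypoxia against normoxia in control cells asks what 16 h in low oxygen did to the class I genes while the enhancer was intact. Of the 8 tested genes, 4 rose, namely HLA-C, HLA-E, HLA-F and B2M, and 0 fell. Over all 15372 genes tested, 32.2% were called in either direction and 16.2% were called higher. Both hypoxia libraries were above both normoxia libraries for 7 of the 8 genes, against 35.9% of all genes tested. The median change of the 8 genes was 0.97 on the log2(FPKM + 1) scale, beside 0.01 for all genes tested.

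HLA-E, whose product carries signal peptides of other class I chains to NKG2A receptors, was at 14.2 and 16.0 FPKM in normoxia and at 54.0 and 58.8 FPKM in hypoxia. The groups were far apart, and the mean level in hypoxia was 3.73 times that in normoxia (log2 change 1.83, SE 0.10, adjusted p = 0.00679). It ranked 222 from the highest change among the 15372 genes. HLA-C, the main class I ligand of killer-cell immunoglobulin-like receptors, went from 26.97 and 32.9 FPKM to 93.7 and 84.9 FPKM, a 2.98-fold higher mean (log2 change 1.55, SE 0.13, adjusted p = 0.00841). HLA-F, a mostly intracellular chain that also reaches the surface without peptide, was at 8.26 and 10.3 FPKM in normoxia and at 20.8 FPKM in both hypoxia libraries. Its duplicates in hypoxia were almost equal and its mean was 2.24 times that in normoxia (log2 change 1.09, SE 0.14, adjusted p = 0.0148).

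HLA-B had the largest gap between duplicates of the heavy chains. It was at 105.9 and 60.4 FPKM in normoxia and at 192 and 159.7 FPKM in hypoxia. The groups did not overlap, but the 2.11-fold difference of the means was not called (log2 change 1.12, SE 0.31, 95% interval 0.25 to 1.99, adjusted p = 0.064). With the spread of all 8 libraries shared in the fit, it was called at the same change (adjusted p = 0.0274).

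B2M, the light chain that every class I molecule needs, was at 1700 and 1677 FPKM in normoxia and at 2174 and 2185 FPKM in hypoxia. The duplicates differed by far less than the groups, and the mean rose by a factor of 1.29 (log2 change 0.37, SE 0.03, adjusted p = 0.0084). The summed FPKM of HLA-B, HLA-C, HLA-E and HLA-F was 155.3 and 119.6 in normoxia and 360.5 and 324 in hypoxia. B2M was therefore present at 10.9 and 14.0 times the summed heavy chains in normoxia and at 6.03 and 6.74 times in hypoxia, without overlap between the groups. B2M also pairs with other partners, which this sum leaves out.

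The genes of peptide transport and loading were not called. TAP1 was at 7.15 and 9.05 FPKM in normoxia and at 9.69 and 8.58 FPKM in hypoxia, so the groups overlapped (log2 change 0.16, SE 0.17, 95% interval -0.31 to 0.63, adjusted p = 0.494). TAPBP was at 14.3 and 15.2 FPKM in normoxia and at 15.7 and 17.9 FPKM in hypoxia (log2 change 0.18, SE 0.12, 95% interval -0.15 to 0.50, adjusted p = 0.311). These intervals leave room for a modest change in either direction. TAP2, the partner of TAP1 in the transporter, was at 16.7 and 6.71 FPKM in normoxia and at 20.3 and 19.9 FPKM in hypoxia (log2 change 0.85, SE 0.44, 95% interval -0.40 to 2.10, adjusted p = 0.22). Its normoxia duplicates differed 2.5-fold, where the 95th percentile over all genes with a mean of at least 5 FPKM was 1.63-fold.

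NLRC5, the transactivator named for these promoters, was at 0.0639 and 0.0865 FPKM in normoxia and at 0.237 and 0.869 FPKM in hypoxia. Both hypoxia values were higher, but they differed 3.67-fold from each other, and the gene was not tested.

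Hypoxia libraries had larger FPKM totals than normoxia libraries, and this bears on small changes. When all libraries were scaled to equal totals, the median change of all genes moved from 0.01 to -0.20, and 28.3% in place of 50.3% of called genes were higher. HLA-C, HLA-E and HLA-F were still called higher, whereas B2M was not (log2 change 0.13, adjusted p = 0.0574), and the changes of TAP1 and TAPBP turned to -0.05 each. Median-of-ratios scaling left the same 4 genes called. Its factors for the control libraries were 0.9841 to 1.004, so it could change little here.

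**Figure D3:**
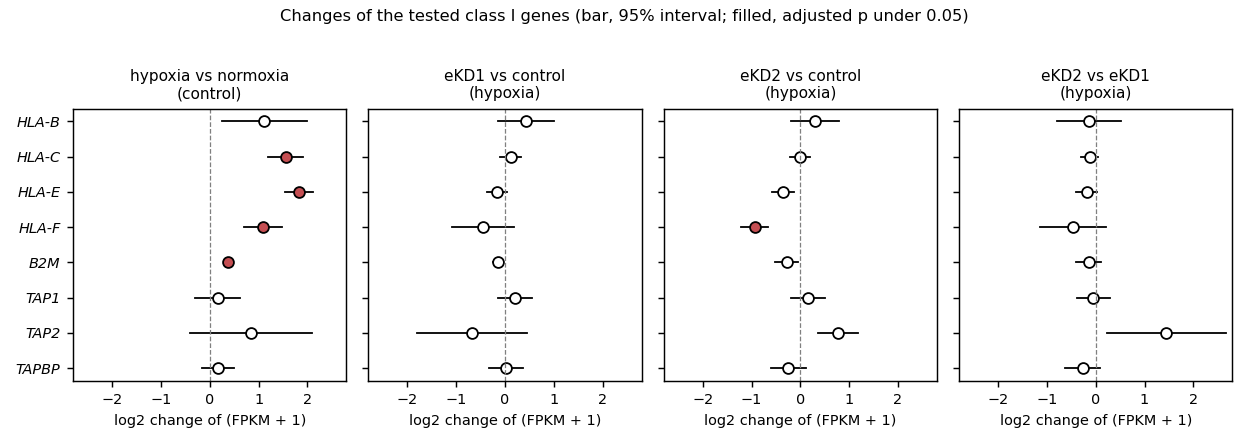
Difference between groups in log2(FPKM + 1) for the 8 tested class I genes (rows) in 4 comparisons (panels), with 95% intervals as bars and genes at an adjusted p under 0.05 filled. HLA-C, HLA-E, HLA-F and B2M are filled in hypoxia against normoxia, only HLA-F is filled in eKD2 against control, and 0 genes are filled in the remaining panels. TAP2 has the widest intervals.

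Other genes that handle class I peptides moved less evenly with hypoxia. Among all genes tested, 32.2% were called and 16.2% were called higher. Of the chaperones of the loading complex, 3 of 3 tested genes were called higher: calreticulin (CALR, log2 change 0.64, adjusted p = 0.00665), the thiol oxidoreductase ERp57 (PDIA3, 0.57, adjusted p = 0.00976) and calnexin (CANX, 0.22, adjusted p = 0.0199). The calnexin difference was -0.02 and not called under equal totals. Of 8 tested genes that cut or trim peptides, 1 was called, the proteasome activator subunit PSME1 (log2 change 0.57, adjusted p = 0.0386), and it was not called under equal totals (adjusted p = 0.0902) or without the filter (adjusted p = 0.0648). The constitutive proteasome subunits PSMB5 and PSMB7 averaged 268 and 269.6 FPKM. Of the immunoproteasome subunits, PSMB10 averaged 11.76 FPKM and PSMB9 2.32 FPKM, whereas PSMB8 was at most 0.775 FPKM.

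Class I relatives were called higher in 5 of 8 tested genes and lower in 0, where 16.2% of all genes tested were called higher. Their median log2 change was 0.69, beside 0.01 for all genes tested. ULBP1, a stress-induced ligand of the natural killer receptor NKG2D, went from 1.28 and 0.994 FPKM to 8.39 and 7.84 FPKM, a 7.15-fold higher mean (adjusted p = 0.00809). FCGRT, the heavy chain of the neonatal Fc receptor and also a B2M partner, averaged 1373 FPKM in normoxia and 2087 FPKM in hypoxia (adjusted p = 0.0103). Its level was above the sum of the 4 class I heavy chains in every library. HLA-H, a class I pseudogene, rose 2.20-fold (adjusted p = 0.0184), and MR1 and HLA-L were called as well, though not under equal totals or without the filter. The part of reads from similar class I chains in the levels of HLA-H and HLA-L was not tested.

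Regulators of class I promoters were called lower more often than higher with hypoxia, at 6 and 1 of 24 tested genes, with a median log2 change of -0.19. Over all genes tested, 16% were called lower and 16.2% higher. Without the filter on low values 4 of the regulators were called lower, with EZH2 (adjusted p = 0.0635) and RFXAP (adjusted p = 0.0531) no longer called. IRF9, the DNA-binding subunit of the interferon-stimulated factor, was the gene that rose (8.32 to 17.1 FPKM, adjusted p = 0.0145). The NF-Y subunits NFYB (log2 change -0.90, adjusted p = 0.00944) and NFYC (-0.87, adjusted p = 0.0276), which bind the Y box, fell together with RFXAP of the X box complex, the kinase JAK1 and the Polycomb subunits EZH2 and SUZ12. Other members of these promoter complexes were not called: NFYA (0.02, adjusted p = 0.866), RFX5 (-0.21, adjusted p = 0.238), RFXANK (-0.19, adjusted p = 0.111) and CREB1 (-0.10, adjusted p = 0.423). Of 18 tested interferon-responsive genes, IFI6, IFIT1, ISG15 and GBP2 rose, with 2.77-fold to 5.95-fold higher means, and IFI44 and IFIH1 fell. IFIT1 (adjusted p = 0.0607) and IFIH1 (adjusted p = 0.0751) were not called without the filter. ISG15, a ubiquitin-like modifier, averaged 4.28 FPKM in normoxia and 12.8 FPKM in hypoxia (log2 change 1.39, adjusted p = 0.0179). The difference was positive for 12 of the 18 genes and negative for 6, with a median log2 change of 0.48, beside 0.01 for all genes tested.

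Markers of other cells were read beside these changes. The summed FPKM of 8 class II genes was 3.71 to 4.35 in normoxia and 8.45 to 9.04 in control hypoxia, with HLA-DRB1 and HLA-DQB1 called higher, neither of them under equal totals or without the filter. The summed leukocyte markers were at 26.1 to 26.2 FPKM in normoxia and 9.09 to 12.5 FPKM in hypoxia. PTPRC fell from a mean of 23.2 to 5.13 FPKM, while CD68, a macrophage marker, averaged 0.906 FPKM in normoxia and 4.45 FPKM in hypoxia and was not called (adjusted p = 0.104). Fibroblast and endothelial markers summed to 240.2 to 240.7 FPKM in normoxia and 266 to 280.1 FPKM in hypoxia. Within these sums, the endothelial marker CDH5 averaged 0.561 FPKM in normoxia and 0.119 FPKM in hypoxia. Ewing sarcoma markers fell in 7 of 10 genes, where 16% of all genes tested were called lower. CD99 was the 1 that rose, though not under equal totals. Their part in the class I levels was not tested.

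**Figure D4:**
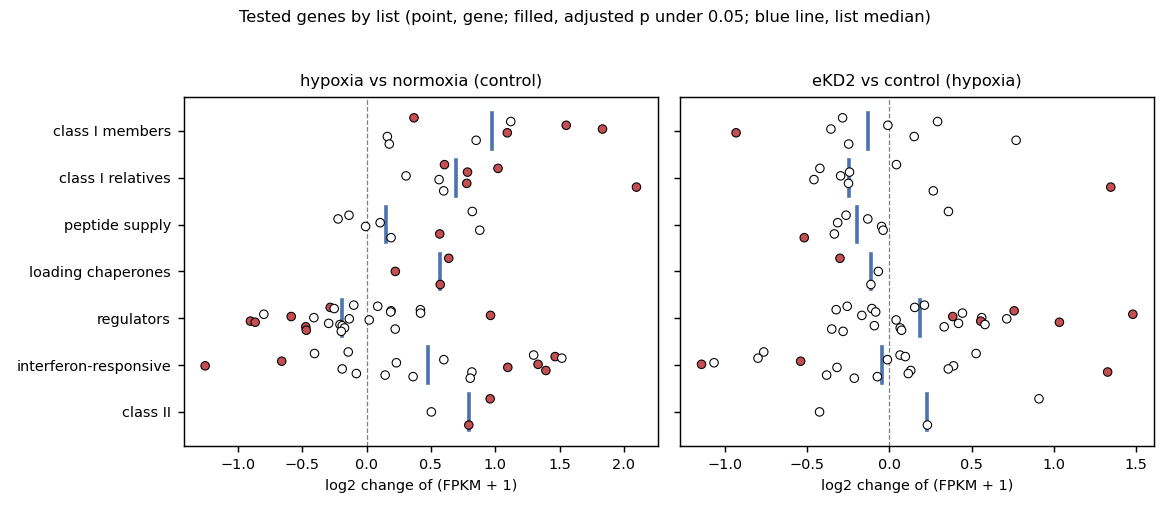
Difference between groups in log2(FPKM + 1) for every tested gene of 7 lists (rows), in hypoxia against normoxia (left) and in eKD2 against control hypoxia (right). Filled points have an adjusted p under 0.05 and blue lines are list medians. The class I genes and their relatives lie to the right of 0 in hypoxia, with medians of 0.97 and 0.69 (under equal totals TAP1 and TAPBP are at -0.05), and the regulators lie around a median of -0.19.

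The comparison of eKD1 with control in hypoxia asks whether repression of the LOXHD1 enhancer altered the class I genes at 1% oxygen. It called 0 of the 8 tested genes, and 0.0651% of all genes tested were called. B2M alone had an unadjusted p under 0.05 in limma, as did 21.7% of all genes tested. The median change of the 8 genes was -0.06, beside 0.00 for all genes.

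HLA-B was at 200.0 and 279 FPKM in eKD1, both above the control hypoxia values of 192 and 159.7 FPKM (log2 change 0.43, SE 0.20, adjusted p = 0.32). HLA-C, at 94.1 and 98.7 FPKM, was close to control hypoxia (log2 change 0.11, SE 0.08, adjusted p = 0.462). HLA-E was slightly below control hypoxia at 49.1 and 51.0 FPKM (log2 change -0.17, SE 0.07, adjusted p = 0.299). The differences of the heavy chains thus did not share a sign. HLA-F was at 18.3 and 12.05 FPKM against 20.8 FPKM in both controls (log2 change -0.46, SE 0.22, 95% interval -1.09 to 0.17, adjusted p = 0.332), an interval that includes both a clear fall and a small increase. B2M was at 2019 and 1945 FPKM, below both controls (log2 change -0.14, SE 0.04, 95% interval -0.24 to -0.03, adjusted p = 0.172).

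TAP1 was at 11.0 and 10.3 FPKM in eKD1 and TAPBP at 18.0 and 16.0 FPKM, with log2 changes of 0.20 (SE 0.13) and 0.02 (SE 0.12). TAP2 was at 18.1 and 8.10 FPKM, a log2 change of -0.68 (SE 0.40, adjusted p = 0.405), and its duplicates differed 2.24-fold. NLRC5 was at 0.0582 FPKM in replicate 1 and listed at 0 in replicate 2. In the lists of peptide supply, chaperones, relatives, regulators and interferon-responsive genes, 0 genes were called in eKD1 by limma. At an unadjusted p under 0.05 there were 1 of 8, 1 of 3, 1 of 8, 6 of 24 and 3 of 18, beside the same 21.7% of all genes.

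The same question with the other guide gave 1 called gene. HLA-F fell in eKD2, and the remaining 7 tested genes did not pass. Over all genes tested, 9.61% were called in either direction and 3.81% were called lower. At an unadjusted p under 0.05, 4 of the 8 genes passed (HLA-E, HLA-F, B2M and TAP2), beside 32.8% of all genes tested. The median change was -0.13, beside 0.05 for all genes.

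HLA-F was at 9.98 and 10.9 FPKM in eKD2, well below the 20.8 FPKM of both control hypoxia libraries and 50.2% of their mean (log2 change -0.93, SE 0.10, adjusted p = 0.0306). These values overlapped those of control normoxia, 8.26 and 10.3 FPKM, at a ratio of means of 1.13. The call was lost without the filter on low values (adjusted p = 0.057) and without the variance trend (adjusted p = 0.0555). HLA-F overlaps an antisense gene, HLA-F-AS1, which was looked up after the HLA-F values were seen. HLA-F-AS1 was at 0.772 and 0.414 FPKM in normoxia, 2.86 and 3.61 in control hypoxia, 1.96 and 2.48 in eKD1 and 0.986 and 0.890 in eKD2, the same order of groups as HLA-F. The libraries were made with a kit that does not mark strand, so reads of the overlapping parts cannot be told apart.

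HLA-E was at 42.4 and 45.3 FPKM in eKD2, below both controls and at 77.8% of their mean (log2 change -0.36, SE 0.08, adjusted p = 0.0733). B2M was at 1931 and 1658 FPKM, or 82.3% of the control mean (log2 change -0.28, SE 0.08, adjusted p = 0.116). Both were called lower when the spread of all 8 libraries was shared (adjusted p = 0.0461 and 0.0403). HLA-C, at 90.6 and 86.6 FPKM, lay within the control range of 84.9 to 93.7 FPKM (log2 change -0.01, SE 0.07, adjusted p = 0.949). HLA-B was at 188 and 245 FPKM (log2 change 0.29, SE 0.17, adjusted p = 0.322), overlapping the controls. Measured against normoxia, HLA-C, HLA-E and HLA-B were still at 2.96, 2.90 and 2.60 times the mean in eKD2. In eKD1 they were at 3.22, 3.31 and 2.88 times. These ratios to normoxia were not tested. The comparisons with control in hypoxia share the control hypoxia libraries with the hypoxia comparison.

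TAP2 was at 39.6 and 30.9 FPKM in eKD2, above the 20.3 and 19.9 FPKM of control hypoxia and above every other library. The 1.75-fold difference was not called (log2 change 0.77, SE 0.15, adjusted p = 0.058), but was under equal totals (adjusted p = 0.0469). TAP1 was at 10.7 and 9.84 FPKM (log2 change 0.15, SE 0.12, adjusted p = 0.449). The ratio of TAP2 to TAP1, whose products form a dimer, was 3.72 and 3.14 in eKD2, 2.10 and 2.32 in control hypoxia, 1.64 and 0.789 in eKD1 and 2.34 and 0.741 in normoxia. TAPBP was at 14.9 and 13.1 FPKM (log2 change -0.25, SE 0.13, adjusted p = 0.266). NLRC5 was at 0.328 and 0.160 FPKM, between the normoxia and the higher control hypoxia value.

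Around these genes, eKD2 changed both lower and higher levels. CALR (log2 change -0.30, adjusted p = 0.0345) and the proteasome activator subunit PSME2 (-0.52, adjusted p = 0.0488) fell. ULBP1 rose to 22.7 and 21.6 FPKM (log2 change 1.35, SE 0.10, adjusted p = 0.0273), whereas it was at 2.78 and 3.80 FPKM in eKD1 (log2 change -1.10 against control, adjusted p = 0.12). Its difference between the guides was 6.73-fold and narrowly missed the threshold (adjusted p = 0.0524). Of the 24 regulators, 5 rose and 0 fell, where 5.8% of all genes tested were called higher: IRF2, a repressor and activator at interferon-responsive promoters (3.10 to 10.3 FPKM, adjusted p = 0.0375), NFYC, NFYB, JAK1 and the interferon gamma receptor chain IFNGR1 (25.7 to 44.1 FPKM, adjusted p = 0.0287). Of 18 interferon-responsive genes, ISG20 rose and IFI6 and IFI44 fell, with IFI6 at 41.5% of control.

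None of these eKD2 calls in the lists held without the filter on low values or without the variance trend. CALR, PSME2 and IFI44 were not called under equal totals, and JAK1 was not under median-of-ratios scaling. PTPRC rose in eKD2 from 5.13 to 13.9 FPKM (adjusted p = 0.0287), and the summed leukocyte markers were at 17.4 to 19.7 FPKM and the summed class II genes at 11.6 to 12.1 FPKM. In eKD1, PTPRC averaged 9.81 FPKM and was not called, and these sums were 14.3 to 15.55 and 10.3 to 10.6 FPKM. Ewing sarcoma markers in eKD2 were called higher in 4 of 10 genes and lower in 1, beside 5.8% and 3.81% of all genes tested. The calls of these markers and PTPRC were also lost without the filter or the trend. The part of all these markers in the class I levels was not tested.

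eKD2 against eKD1 asks whether the guides differed. It called 0 of the 8 tested genes by limma, and 0.403% of all genes tested were called. At an unadjusted p under 0.05, only TAP2 passed, beside 23.6% of all genes tested. TAP2 averaged 35.3 FPKM in eKD2 and 13.1 FPKM in eKD1, a 2.69-fold difference (log2 change 1.45, SE 0.42, 95% interval 0.24 to 2.66, adjusted p = 0.17). HLA-F was lower in eKD2 than in eKD1 by 0.47 on the log2 scale (SE 0.24, adjusted p = 0.322), and the fall of HLA-F in eKD2 is therefore not shown to differ between the guides. The remaining 6 differences lay between -0.27 and -0.05, with adjusted p-values of 0.24 to 0.829.

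TAP2 moved with depth in part of the libraries. Its lowest values, 6.71 and 8.10 FPKM, were in replicate 2 of control normoxia and of eKD1, which had the lowest relative depth, 55.7% and 61.1% of replicate 1 of control hypoxia. HLA-B did not share this pattern, since replicate 2 of eKD1 had its highest value, 279 FPKM. The eKD2 libraries, with the highest TAP2, stood at 77.6% and 77.1%. The part of depth in the TAP2 values was not tested.

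**Figure D5:**
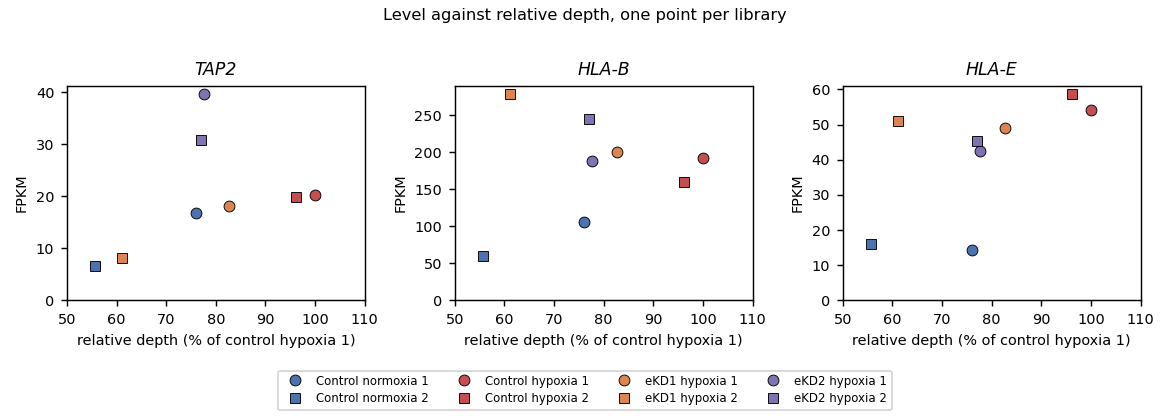
FPKM of TAP2, HLA-B and HLA-E against relative depth (percent of replicate 1 of control hypoxia), with 1 point per library, colours for groups, circles for replicate 1 and squares for replicate 2. The libraries at 55.7% and 61.1% have the lowest TAP2 values, 6.71 and 8.10 FPKM, while for HLA-B and HLA-E both normoxia libraries are the lowest.

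Across the 8 libraries, HLA-C and HLA-E had the most similar profiles of any pair of members (Pearson r = 0.977 of log2(FPKM + 1), n = 8), followed by HLA-B with HLA-C (r = 0.869) and HLA-F with B2M (r = 0.863). TAP2 followed none of them closely, with r between -0.238 and 0.443. These libraries share groups and scaling, so the values describe the profiles only. Among 10808 genes with a mean of at least 5 FPKM, those most like HLA-B were RAB5B (r = 0.990), RNPEPL1 (0.989) and C16orf74 (0.979). Those most like B2M were LINC00969 (0.980), RPS6KB2 (0.976) and RPL22 (0.968). For TAP1 they were AC079054.1 (0.975), GSKIP (0.946) and ATG4A (0.944), and for NLRC5, at its very low level, SUGP2 (0.952), ZNF283 (0.915) and PDIK1L (0.905).

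Class I genes resemble each other, and the reads were 75 bases long, so shared sequence was counted in words of that length over GENCODE transcripts. HLA-C shared 1.79% of its words with genes elsewhere in the genome and HLA-E 2.30%, mostly with HLA-G. HLA-B, B2M and NLRC5 shared 0 words with genes elsewhere, and TAP1, TAP2, HLA-F and TAPBP between 0.0909% and 1.27%. Genes that overlap in the annotation shared far more: 51.0% of the words of HLA-B, 29.5% of TAP2, 27.5% of TAPBP, 17.2% of TAP1 and 16.9% of HLA-F. HLA-B and HLA-C also stand in 1 merged locus of the expression table. That locus ends at 31325414, whereas HLA-B reaches 31334844 in the annotation used for these counts. Shared words were not counted in the annotation behind the FPKM values, where the shares may differ. The counts use the reference alleles, and the alleles of SK-N-MC were not analysed here. The levels of the polymorphic heavy chains therefore carry an uncertainty beyond the spread of the duplicates.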

How the data were processed

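RNA was measured in 8 SK-N-MC libraries, 2 per group, with groups and replicate numbers taken from the sample titles. Per the study's methods, poly-A selected libraries were sequenced as single-end reads of 75 bases and aligned to GRCh37 with STAR, and the authors computed FPKM with cufflinks and cuffnorm. The methods name a TruSeq RNA kit and say nothing of strand, and that kit in its standard form does not mark it. The deposited FPKM values form 1 table of 60332 genes. How cuffnorm scaled the libraries against each other is not given in the sources used here, and cufflinks shares out reads among overlapping genes. The test of the study was run on read counts. FPKM is not a count, so limma was used here. The study calls the duplicates biological, and where they were not separate cultures the p-values measure only the spread between libraries.

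Values were analysed as log2(FPKM + 1), which understates changes of low genes. A gene was tested if 2 or more of the 8 libraries reached 1 FPKM, which left 15372. For each comparison, limma 3.58.1 (R 4.3.3) was fitted to the 4 libraries concerned, using lmFit and eBayes with trend. P-values are two-sided with Benjamini-Hochberg adjustment across the tested genes, and called means an adjusted p under 0.05. Every adjusted p-value comes from limma. SE is the standard error of the log2 change and intervals cover 95%. The fit was tested on simulated data. No interval for a single value or detection floor was computed, since both need counts. Promoter sequences are from RefSeq, and gene positions and transcripts from GENCODE on GRCh37. Promoters were aligned globally, with gaps counted as differences.

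The members and gene lists were chosen with earlier results of these data known. The genes named are the 9 members, LOXHD1, list genes that were called in a comparison or had the highest mean, and the 3 genes most correlated with each of HLA-B, B2M, TAP1 and NLRC5. NKG7, CD3E, CD74, HLA-DQA1, PSMB8, PSMB9, PSMB10, PDGFRA, CDH5, NFYA, RFX5, CREB1 and HLA-F-AS1 are named outside this rule, with their values seen. As alternatives, the pseudocount was set to 0.1, the filter was dropped or replaced by a mean of 5 FPKM, libraries were rescaled by median of ratios or to equal totals, all 8 libraries were fitted together, the replicate number was added as a block, the trend was omitted, and each library was left out in turn. A further gene is not reported here.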

Additional observations from a re-analysis of the deposited data

How the results depend on the processing

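Over the 4 comparisons and 12 alternatives, the 8 tested class I genes gave 384 values, of which 11 changed sign. Calls are not counted over these values, because the fits without 1 library say nothing about stability. In hypoxia, HLA-C, HLA-E and HLA-F stayed called in every alternative that kept both libraries of each group. B2M stayed called in each of these except equal totals. The sign changes were all of small differences. With equal FPKM totals, the hypoxia changes of TAP1 and TAPBP were -0.05 (-0.054 and -0.051) and HLA-C in eKD2 was 0.10 (0.096). TAPBP in eKD1 was -0.003 with median-of-ratios rescaling and -0.073 (without replicate 1 of control hypoxia) to 0.11 when 1 library was left out. On leaving out 1 library, HLA-C in eKD2 was -0.08 to 0.062 and, between the guides, HLA-B was -0.378 to 0.102 and TAP1 was -0.102 to 0.001.

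The class I genes called in eKD2 were 1 as reported, 2 with equal totals (HLA-F and TAP2), 3 with the shared fit (HLA-F, HLA-E and B2M) and 0 without the filter, with the replicate block or without the variance trend. Over all genes, the calls for hypoxia went from 4946 to 2570 with the replicate block. For eKD1 they went from 10 to 6 without the filter, 6 without the trend, 761 with the shared fit and 0 with the block. For eKD2 they went from 1477 to 25 without the filter, 28 without the trend, 2601 with the shared fit and 0 with the block, and 46.3% (median-of-ratios) or 77.5% (equal totals) in place of 60.3% of calls were higher. For eKD2 against eKD1 they went from 62 to 13 without the filter, 105 with a mean of 5 FPKM, 1391 with the shared fit, 5 without the trend and 0 with the block. The cause was not tested. Leaving out any library gave 0 calls in every comparison, over all genes and over the class I genes, so the 4 calls in hypoxia and the 1 in eKD2 were lost; such fits have 1 residual degree of freedom, assume that the lone library varies like the pair, and say nothing about stability. The labels do not say whether same-numbered libraries share a batch. Deviations of same-numbered libraries correlated at -0.057 to 0.126 between groups, which cannot settle it. With the block, HLA-B was called higher in hypoxia (adjusted p = 0.0474) and HLA-F in eKD2 was not called (0.0925). In the lists, EZH2, RFXAP, SUZ12, IFI6, IFIT1, ISG15, PSME1, CANX, MR1, HLA-H, HLA-L, HLA-DQB1, HLA-DRB1, COL3A1, CD99, BCL11B and KCNAB3 lost their calls in hypoxia (0.0507 to 0.088), and every call in eKD2 was lost. The limits are 2 libraries per group, unknown depth, reference alleles in place of the alleles of the line, and no strand.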
